A study of Homo sapiens with 8 samples.

Results

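The genes described here are the well-expressed members of the numbered ZNF family. A gene entered when its symbol was ZNF, a number and at most 1 further letter, and when its raw counts summed to 1500 or more over the 4 nuclear libraries. Of 560 such genes among the 60664 genes in the tables, 169 passed, and 391 had fewer counts, 29 of them 0. The summed count of the 169 genes ran from 1504 to 20503, with a median of 2483. Of these genes 165 are annotated as protein-coding and 4 as pseudogenes, namely ZNF767P, ZNF252P, ZNF204P and ZNF271P. They lie on 21 chromosomes, 42 of them on chromosome 19 and 20 on chromosome 7. The genes just inside the limit were ZNF248 with 1504 counts, ZNF789 with 1521 and ZNF324 with 1533. Those just outside were ZNF280D with 1484 counts and ZNF395 and ZNF551 with 1483 each. The rule used the summed counts of the libraries that are also compared at the nucleus. The nuclear shares of these genes are therefore given as a description, with the outcome under other choices of genes beside them.

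RNA near the peroxidase APEX2 was tagged with biotin in HEK293T cells, an established line of human embryonic kidney origin, captured on streptavidin beads and sequenced. The labelled nuclear group (NLS) and its unlabelled nuclear control had 2 libraries each, as did the labelled group at the outer mitochondrial membrane (OMM) and its unlabelled control, 8 libraries in all. All cells expressed APEX2 and grew in the same medium, and the sources used here do not say whether a line was a single clone. Whether replicate libraries stem from separate cultures is not labelled either, and p-values then reflect the spread among libraries alone, which may be technical. The NLS libraries are titled ribominus and came from a SMARTer kit for stranded total RNA, and the OMM libraries are titled trizol and came from a TruSeq stranded mRNA kit, which selects polyadenylated RNA, so compartment and kit cannot be told apart.

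The labelled NLS libraries held 9531568 and 8039176 counts in total, against 20746393 and 21096586 for NLS controls. At OMM the labelled libraries held 52421161 and 34705126 counts, against 41660431 and 35165227 for the controls. Libraries are named by the numbers in the deposited column names. Levels are counts per 1000000 (CPM) scaled with TMM factors, and 3 counts in a library equal between 0.142 and 0.373 CPM for nuclear libraries and between 0.0572 and 0.0864 CPM for OMM libraries, floors that cover counting error only. The nuclear RNAs NEAT1, MALAT1 and KCNQ1OT1 were higher in the labelled NLS libraries by 3.86, 2.31 and 4.14 on the log2 scale, and GAPDH and MT-CO1 were lower, at -2.16 and -2.58. Of the kidney-line markers VIM, KRT8, KRT18 and NEFM were detected and PAX2 was low. Of the markers of other cells, INS was at 0, ALB, HBB and PTPRC were at or near 0, and COL1A1 averaged 5.91 CPM in labelled NLS libraries and 7.33 CPM in their controls.

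As background, the numbered ZNF genes code mostly for C2H2 zinc-finger proteins, in which a short fold held by a zinc ion contacts DNA, and many such folds follow each other in tandem, joined by a conserved linker. Many of them also carry a KRAB domain, which recruits the co-repressor TRIM28 and, through it, the histone methyltransferase SETDB1 to silence transposable elements. Others activate promoters, act in chromatin complexes or bind RNA, ribosomes or the spindle. The genes lie in clusters, above all on chromosome 19, and have arisen largely by duplication.

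Many of these genes carry linker repeats inside the coding sequence. To show such repeats, adjacent repeat units of 84 bases are given for ZNF721, which held the most linkers, for ZNF195, which was higher in the labelled nuclear libraries, and for ZNF146 and ZNF22, which were lower there. They were read from the GENCODE 29 transcripts (GRCh38), 5′ to 3′ on the coding strand, and capitals mark the 20 bases of the linker motif, searched on that strand only. Of its 20 letters 11 are fixed: the codon starts GG, GA, AA and CC, each with any base after it, then a T and, past 5 free bases, TG. The units are chr4:443987-444070 and chr4:443903-443986 (minus strand) for ZNF721, chr11:3359625-3359708 and chr11:3359541-3359624 (minus strand) for ZNF195, chr19:36236726-36236809 and chr19:36236810-36236893 (plus strand) for ZNF146, and chr10:45003687-45003770 and chr10:45003771-45003854 (plus strand) for ZNF22. All lie within a coding exon.
ZNF721, first unit: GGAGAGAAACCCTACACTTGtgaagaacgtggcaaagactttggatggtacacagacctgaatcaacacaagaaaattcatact
ZNF721, next unit: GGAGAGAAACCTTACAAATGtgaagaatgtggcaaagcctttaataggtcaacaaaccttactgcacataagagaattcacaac
ZNF195, first unit shown: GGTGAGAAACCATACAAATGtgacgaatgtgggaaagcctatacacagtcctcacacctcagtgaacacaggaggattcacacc
ZNF195, next unit: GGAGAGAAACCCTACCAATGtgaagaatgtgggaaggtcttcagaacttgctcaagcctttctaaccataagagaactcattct
ZNF146, first unit shown: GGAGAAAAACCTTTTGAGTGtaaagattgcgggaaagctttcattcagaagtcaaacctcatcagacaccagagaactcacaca
ZNF146, next unit: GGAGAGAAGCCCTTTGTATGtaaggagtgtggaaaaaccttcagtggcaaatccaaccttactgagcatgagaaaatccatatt
ZNF22, first unit: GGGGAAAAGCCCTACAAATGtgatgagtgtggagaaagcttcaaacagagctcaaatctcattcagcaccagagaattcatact
ZNF22, next unit: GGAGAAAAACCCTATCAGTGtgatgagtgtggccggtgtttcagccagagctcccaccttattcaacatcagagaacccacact

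Compared base by base, these units were 57.1% to 77.4% identical, and the closest were a ZNF721 and a ZNF195 unit, at 77.4%, above the 75% between the ZNF721 units themselves. The motif occurred 710 times in the transcripts of 112 of the 169 genes, which is 66.3%, against 2.76% of 19922 protein-coding genes. Of the 550 protein-coding genes that held it, 390 were numbered ZNF genes. An exact spelling undercounts fingers, so a gene without a match may still code for them. Over whole transcripts, 70 of the 169 genes shared no run of 50 bases with a transcript of another gene and the median share was 0.370%. In 13 genes more than 20% of such runs were shared, among them ZNF320 with 99.5%, ZNF23 with 98.1%, ZNF410 with 83.5%, ZNF286A with 68.9% and ZNF724 with 55.6%, so the counts of these genes are uncertain. On the genome, 82 genes shared exonic bases with another gene on either strand, 3 of them over more than 50% of their exonic length, and the strand setting of the counting is not given in the sources used here. Counts of a gene and its overlapping or antisense neighbour therefore cannot be told apart.

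In the labelled NLS libraries 61 of the 169 genes were higher than in the controls at an adjusted p under 0.05 (edgeR's quasi-likelihood test, Benjamini-Hochberg over 20858 genes), 35 were lower and 73 did not pass. That is 36.1% higher and 20.7% lower, against 28.8% and 28.5% of all genes tested. Among the 7662 protein-coding genes with 1500 or more nuclear counts, 165 ZNF genes included, 17.8% were higher and 57.5% lower. Here and below, genes at this level or with as many counts share that lower limit but were not matched in abundance. Across the 7497 of them that are not numbered ZNF genes, the log2 fold change fell with the summed count (Spearman -0.237). High control counts raise the sum and lower the fold change, so a negative correlation can be built in. The median log2 fold change was 0.16 for the ZNF genes (quartiles -0.29 and 0.67), 0.14 for all genes and -0.52 for the other protein-coding genes at this level. At least 2-fold changes were seen in 25 genes that rose and 10 that fell. Both labelled libraries lay above both controls in 88 genes, which is 52.1% against 45.1% of all genes, below both in 53, which is 31.4% against 37.7%, and the groups overlapped in 28. Among protein-coding genes at this level the labelled libraries lay apart upward in 23.8% and downward in 65.5%. Higher and lower, like rose and fell, refer to a gene's share of the sequenced RNA in labelled against unlabelled libraries, not to its expression. In tagged RNA from many cells, such a share cannot be split into cells with a transcript and copies per cell.

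**Figure D1:**
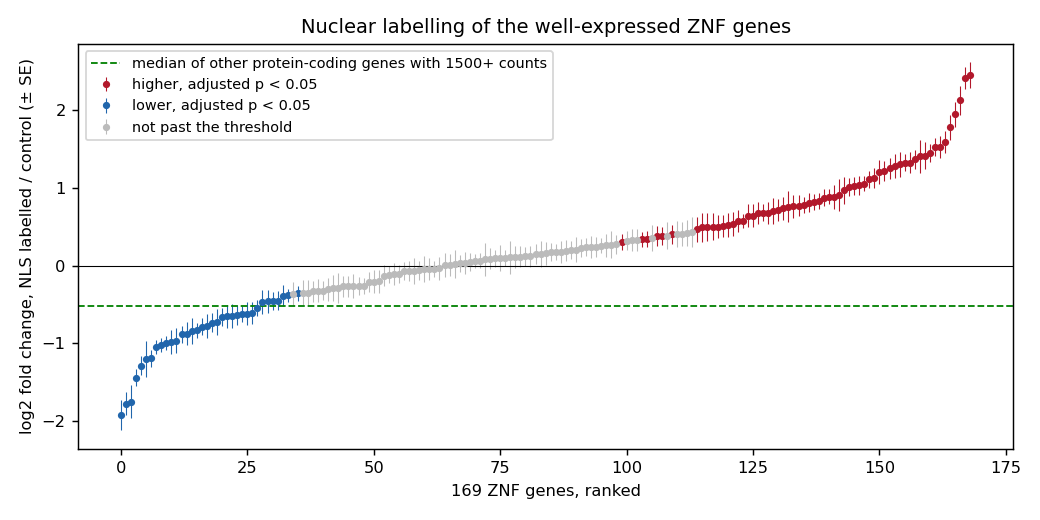
Nuclear log2 fold change, labelled over control, of each of the 169 ZNF genes in rank order, with its standard error (2 libraries per group) and the call in colour. The dashed line is the median of the other protein-coding genes with 1500 or more counts, -0.52, and most ZNF genes lie above it.

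Labelled and control libraries both entered the sum that chose the genes, so the choice itself can favour genes that were high in either. Control libraries held more counts, so the raw sum gave them more weight. With each arm scaled to the same total by raw library totals, without TMM factors, 123 genes reached 1500 by either arm alone. Among them 33 rose and 30 fell (median log2 fold change 0.04). That is 26.8% and 24.4%, near the 28.8% and 28.5% of all genes tested. Of the other protein-coding genes at this level 17.4% were higher and 58.4% lower. The 41 genes that reached 1500 through the labelled libraries only included 28 that rose and 0 that fell. The 5 that reached 1500 through the controls only all fell. This split used library totals, whereas the rises and falls are TMM calls. The median of the 169 genes was 0.68 with library size alone, against 0.16 with TMM. The split of 41 against 5 therefore depends partly on scaling. ZNF706, with a log2 fold change of 0.11 under TMM, counted as reaching 1500 through the labelled libraries only. The 169 ZNF genes with the most OMM counts, 133 of them shared, were chosen without the nuclear libraries. Of these, 50 rose and 43 fell at NLS, which is 29.6% and 25.4%, with a median of 0.09. Among the 8818 protein-coding genes with at least as many OMM counts, ZNF genes left out, 14.6% rose and 56.7% fell. Their median was -0.53. Of the ZNF genes under the limit 285 could be tested, and 96 rose and 20 fell, which is 33.7% and 7.02%, with a median of 0.52.

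The split also moved with the scaling. With library size alone, 116 of the 169 genes were higher and 14 lower. That is 68.6% and 8.28%, against 43.7% and 16.1% of all genes tested. The median moved to 0.68 while that of all genes moved to 0.66, so the medians, unlike the shares, lay close to each other under both scalings. Of the other protein-coding genes at this level 35.1% were then higher and 35.0% lower, so the ZNF share stayed above theirs, and their median was 0.00. All 61 genes that rose under TMM remained higher, whereas 14 of the 35 that fell remained lower and 7 turned positive. The authors' deposited table gave 61 of the 169 genes higher and 30 lower at a p under 0.05, and all of them had the same call in edgeR. At OMM it gave 9 higher and 4 lower, and 0 of these passed in edgeR. That table comes from the same libraries and is no separate support.

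**Figure D2:**
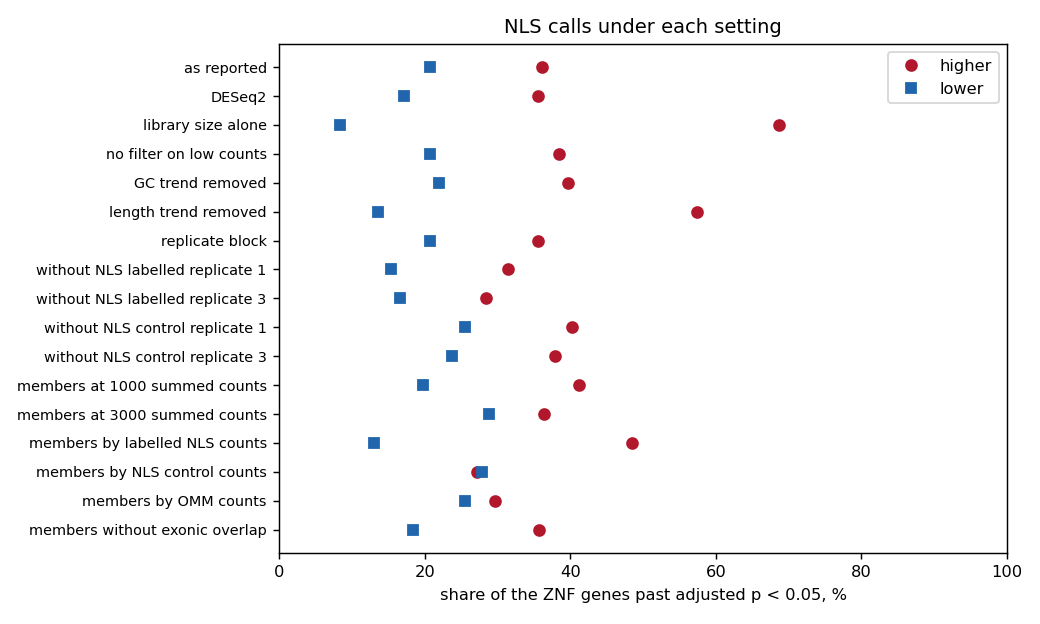
Share of the ZNF genes higher and lower at NLS at an adjusted p under 0.05, in percent, under each setting and each choice of genes. The higher share lies right of the lower share in every line except that of the genes chosen on control counts, where the points nearly coincide, and the widest gap is that of library size alone, with 68.6% and 8.28%.

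The largest nuclear rise was that of ZNF789 (ENSG00000198556, chromosome 7 from 99472841 to 99503650). It had 53.0 and 58.7 CPM in the labelled libraries, against 9.20 and 11.2 CPM in the controls, 2.45 ± 0.17 higher on the log2 scale (SE). ZNF789 is also among the genes just inside the count limit. The pseudogene ZNF767P (ENSG00000133624, chromosome 7 from 149547154 to 149624752) had 120 and 121 CPM in the labelled libraries, against 25.2 and 19.97 CPM in the controls, a log2 fold change of 2.42 ± 0.14. ZNF767P lies beside ZNF746, with whose transcripts it shares 4.15% of its runs of 50 bases. ZNF891 had 49.1 and 69.3 CPM in the labelled libraries and 13.6 and 13.5 CPM in the controls (2.13 ± 0.19). ZNF519 had 74.6 and 81.6 CPM against 23.0 and 17.4 CPM in the controls (1.95 ± 0.16). The next were ZNF782, at 1.78 ± 0.16, and ZNF26, at 1.59 ± 0.14. In all 6 genes the lowest labelled library was above the highest control. All 6 also reached the count limit through the labelled libraries only, so their rises are a description. The remaining 3 pseudogenes were ZNF271P, which fell by 0.36 but was positive (0.16) with library size alone, and ZNF252P and ZNF204P, with -0.21 and -0.35, which did not pass.

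The lowest was ZNF593 (ENSG00000142684, chromosome 1 from 26169871 to 26170873), a relative of yeast Bud20, which takes part in the maturation and export of the large ribosomal subunit in yeast. It had 13.8 and 10.3 CPM in the labelled libraries, against 41.4 and 50.4 CPM in the controls, so its log2 fold change was -1.93 ± 0.20. All of its exonic bases overlap another annotated gene. ZNF22 (chromosome 10 from 45000475 to 45005326) had 18.0 and 22.1 CPM in the labelled libraries and 70.6 and 66.7 CPM in the controls (-1.78 ± 0.15), and 45.3% of its exonic bases overlap another gene. ZNF358 had 15.6 and 10.5 CPM against 40.6 and 48.1 CPM in the controls (-1.76 ± 0.21, overlap 34.4%). These 3 genes span 1003, 4852 and 5735 bp, overlap other genes and were low in both labelled libraries. ZNF664 (chromosome 12 from 123971845 to 124015439, overlap 5.99%) was among the most abundant and had 149 and 153 CPM in the labelled libraries, against 447 and 377 CPM in the controls (-1.45 ± 0.11). ZNF770 fell by 1.29 ± 0.13 and ZNF511 by 1.20 ± 0.23 on the log2 scale, with 31.9% and 46.8% of exonic bases in another gene. ZNF593, ZNF22, ZNF358 and ZNF511 reached the count limit through the controls only, so their falls are a description, while ZNF664 and ZNF770 reached it by either arm. At the other end of effect size, ZNF543, ZNF724 and ZNF268 had log2 fold changes of 0.00, 0.00 and 0.02.

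**Figure D3:**
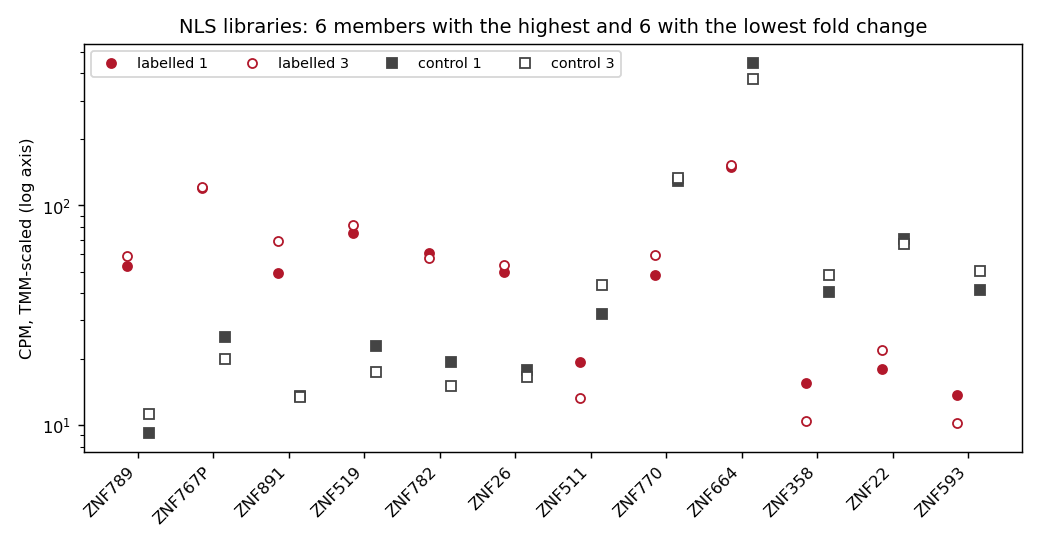
TMM-scaled CPM on a log axis in each NLS library for the 6 ZNF genes with the highest and the 6 with the lowest fold change among those that passed. Red circles are the labelled libraries and dark squares the controls, and the groups do not overlap in any of the 12 genes.

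Levels per exonic length, averaged over the 4 NLS libraries, ran from 1.66 to 73.2 CPM per kb, with a median of 7.91. The highest were ZNF703 with 73.2, ZNF146 with 57.9, ZNF503 with 54.5, ZNF664 with 44.4 and ZNF24 with 39.5 CPM per kb, and all 5 fell in the labelled libraries. ZNF703, a gene amplified in some breast cancers, had 156 and 164 CPM in the labelled libraries, against 332 and 328 CPM in the controls (log2 fold change -1.05 ± 0.09). Its relative ZNF503 had 125 and 118 CPM against 236 and 250 CPM in the controls (fold change -1.0003 ± 0.09 on the log2 scale). ZNF146, a protein made almost solely of fingers, had 153 and 164 CPM against 324 and 320 CPM in the controls (-1.02 ± 0.09). ZNF24, which carries a SCAN domain for dimer formation, had 235 and 271 CPM in the labelled libraries and 425 and 376 CPM in the controls (-0.66 ± 0.11), and it did not pass with library size alone. Labelled libraries of these genes stood at about the same level as each other and below both controls. Across the 169 genes the summed count and the nuclear log2 fold change had a Spearman correlation of -0.178, a description over genes that share their libraries. High control counts raise the sum and lower the fold change, so a negative value can be built in. No conclusion is drawn from it.

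Genes with roles in RNA, ribosomes or cell division numbered 12, of which 3 rose and 5 fell. That is 25% and 41.7%, against 28.8% and 28.5% of all genes tested and 17.4% and 58.4% of other protein-coding genes at this level. Scaled by library size alone, 6 were higher and 3 lower, and the shares over all genes were 43.7% and 16.1%. Their median log2 fold change was -0.02, beside 0.14 over all genes. ZNF346, which binds double-stranded RNA, had 112 CPM in each labelled library, against 54.3 and 49.6 CPM in the controls (1.11 ± 0.11, adjusted p = 8.44e-05, edgeR). ZNF451, a SUMO ligase, had 138 and 155 CPM against 117 and 84.9 CPM in the controls (0.54 ± 0.15). ZNF638, a matrin-type protein that takes part in silencing of retroviral DNA, was the gene with the most counts and had 401 and 446 CPM in the labelled libraries, against 333 and 336 CPM in the controls (0.34 ± 0.10), a call that was lost without labelled library 3. Those that fell besides ZNF593 were ZNF318 (-0.89), ZNF106 (-0.84), the nucleolar protein ZNF330 (-0.64) and ZNF598 (-0.62), the ubiquitin ligase that acts on collided ribosomes. ZNF598 had 89.4 and 80.5 CPM in the labelled libraries and 127 and 135 CPM in the controls, and it lost its call when the length trend was removed. Scaled by library size alone, neither it nor ZNF330 passed. ZNF207, which carries BUB3 to kinetochores, had 250 and 310 CPM against 272 and 271 CPM in the controls, and ZNF326, of the complex that links RNA polymerase to splicing, had 204 and 233 CPM against 226 and 202 CPM. In both the groups overlapped. ZNF622, a relative of the yeast ribosome factor Rei1, and ZNF706 did not pass either, with log2 fold changes of -0.07 and 0.11.

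Of 24 genes listed for promoters or chromatin, 5 rose and 7 fell at NLS. That is 20.8% and 29.2%, against 28.8% and 28.5% of all genes tested and 17.4% and 58.4% of other protein-coding genes at this level. With library size alone 4 of the 7 (ZNF217, ZNF384, ZNF518B and ZNF644) were slightly positive. That scaling gave 14 higher and 1 lower, which is 58.3% and 4.17%, against 43.7% and 16.1% of all genes. The median was -0.08, beside 0.14 over all genes. ZNF827, which brings the NuRD complex to telomeres, had 58.9 and 47.9 CPM in the labelled libraries, against 20.5 and 22.9 CPM in the controls (1.30 ± 0.16), and it too reached the count limit through the labelled libraries only. ZNF292, linked to neurodevelopmental disorders, had 184 and 182 CPM against 103 and 95.2 CPM in the controls (0.89 ± 0.09). ZNF335, a gene of inherited microcephaly, had 64.9 and 56.9 CPM in the labelled libraries and 32.7 and 40.3 CPM in the controls (0.74 ± 0.15). In these 3 genes the labelled libraries lay well clear of the controls, while ZNF516 (0.50) and ZNF131 (0.38) rose less. ZNF516 lost its call without labelled library 1, and ZNF131 without labelled library 3 or control 1. Of those that fell, ZNF703 and ZNF24 are given above, and ZNF281 had 75.3 and 88.7 CPM in the labelled libraries, against 146 and 127 CPM in the controls (-0.74 ± 0.12), a call lost with library size alone. ZNF644, a partner of histone methyltransferases, had 170 and 174 CPM against 222 and 226 CPM in the controls (-0.38 ± 0.09). ZNF217, amplified in breast cancer, and ZNF384, a fusion partner in leukaemia, fell by 0.47 and 0.45, and ZNF518B by 0.39. All 3 lost their calls under DESeq2 as run here and without either labelled library. In the authors' deposited table ZNF384 had a p of 0.0480, just under 0.05, and ZNF217 and ZNF518B had 0.151 and 0.180.

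The remaining 12 genes of that list did not pass. ZNF143, an activator of small nuclear RNA and mRNA promoters, had 36.7 and 30.5 CPM in the labelled libraries and 25.4 and 38.3 CPM in the controls, so its groups overlapped. ZNF592, ZNF687 and ZNF532, partners of ZMYND8, had log2 fold changes of 0.06, -0.11 and -0.29. ZNF410, the activator of CHD4, had 0.18, with most of its sequence shared with other transcripts, and ZNF512B, which binds NuRD, had 0.23. ZNF609, the source of a circular RNA, had 89.3 and 85.5 CPM against 91.3 and 88.6 CPM in the controls, and ZNF711, a gene of X-linked intellectual disability, 82.6 and 85.3 CPM against 105 and 95.9 CPM. The log2 fold changes of all 12 lay between -0.33 and 0.24. For imprinting and transposable elements the list held 2 well-expressed genes. ZNF445, which maintains imprints, had 205 and 223 CPM in the labelled libraries, against 116 and 126 CPM in the controls (0.82 ± 0.10), and ZNF765 had 37.4 and 40.0 CPM against 33.8 and 25.5 CPM (0.38 ± 0.17, adjusted p = 0.0860, edgeR).

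Of 21 genes of the TRIM28 and heterochromatin machinery, the partners of KRAB zinc fingers, 2 rose and 13 fell at NLS, with a median of -0.58, close to the -0.52 of protein-coding genes at the level of the ZNF genes. That is 9.52% higher and 61.9% lower, against 17.4% and 58.4% of those genes. With library size alone 6 were higher and 9 lower, with a median of -0.065. TRIM28 itself had 249 and 187 CPM in the labelled libraries, against 595 and 630 CPM in the controls (-1.49 ± 0.14), and CBX3, a heterochromatin reader, fell by 1.54. DNMT3A, a DNA methyltransferase, rose by 0.75 and PPHLN1, of the HUSH complex, by 0.31. SETDB1 had 79.9 and 83.9 CPM against 70.1 and 82.8 CPM in the controls and did not pass. Of 55 genes from other C2H2 families with as many counts 13 rose and 27 fell, with a median of -0.31. That is 23.6% and 49.1%, against 17.4% and 58.4% of protein-coding genes at this level, but 20 were higher and 14 lower with library size alone, with a median of 0.20. They were led by PRDM15 (1.43) and ZSCAN12 (1.30) among those that rose and by MAZ (-1.52) and ZBTB33 (-1.43) among those that fell.

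By position, 12 of the 42 genes on chromosome 19 rose and 7 fell, with a median of 0.23, and 49 of the 127 genes elsewhere rose and 28 fell, with a median of 0.12. The shares were 28.6% higher and 16.7% lower on chromosome 19 and 38.6% and 22.0% elsewhere. All genes tested had 28.8% and 28.5%, and other protein-coding genes at this level 17.4% and 58.4%. The share higher on chromosome 19 was thus near that of all genes and above that of the other protein-coding genes. Genes on chromosome 19 and elsewhere moved up together with library size alone, to medians of 0.75 and 0.64. Neighbourhoods in which at least 5 of the genes lay within 1 Mb of the next numbered 7, a grouping chosen after their values were seen. On chromosome 7 from 149126416 to 149624752, ZNF398, ZNF282, ZNF212, ZNF783, ZNF746 and ZNF767P rose, by 0.30 to 2.42, whereas ZNF777 in their midst fell by 0.61. ZNF746, known as PARIS and a substrate of the ubiquitin ligase parkin, had 111 and 115 CPM in the labelled libraries and 91.1 and 87.5 CPM in the controls (0.34 ± 0.10). On chromosome 19 from 57191500 to 58475436, 4 of 8 genes rose and 0 fell, and on chromosome 16 from 30378106 to 31917357, 1 of 6 rose and 3 fell.

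Gene size moved with the nuclear fold change. Across the 169 genes the Spearman correlation of the log2 fold change was 0.287 with gene span, 0.333 with exonic length and 0.200 with the number of exonic blocks, against 0.381, 0.4998 and 0.423 across 7497 other protein-coding genes at this level. It was 0.006 with transcript GC content and 0.141 with the number of linkers. These are descriptions across genes that share their libraries. In the shortest tercile by span (1003 to 21455 bp) 14 of 56 rose and 20 fell, with a median of -0.02, and in the longest tercile (43223 to 467802 bp) 28 of 57 rose and 5 fell, with a median of 0.38. With library size alone the medians of these terciles were 0.49 and 0.90. Other protein-coding genes in the same span ranges had medians of -0.93 and -0.28. Of these, 10.6% were higher and 73.1% lower in the short range, and 21.5% and 48.1% in the long range. Of the 57 genes without a linker motif 21 rose and 18 fell, of the 56 with 1 to 5 motifs 21 rose and 10 fell, and of the 56 with 6 or more 19 rose and 7 fell. The shares that rose, 36.8%, 37.5% and 33.9%, hardly differed, and those that fell were 31.6%, 17.9% and 12.5%. All genes tested had 28.8% and 28.5%, and other protein-coding genes at this level 17.4% and 58.4%. ZNF721, with 20 motifs the most, had 228 and 231 CPM in the labelled libraries, against 105 and 116 CPM in the controls (1.05 ± 0.10), although 25.8% of its exonic bases overlap other genes. With the trend of transcript length over all gene types removed, 57.4% of the 169 genes were higher and 13.6% lower. The shares of all genes were then 32.1% and 23.3%, and the medians 0.47 for the ZNF genes and 0.31 for all. Transcript length itself had a Spearman correlation of 0.101 with the fold change of the ZNF genes. The span terciles still differed under this setting, with medians of 0.29 and 0.68.

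**Figure D4:**
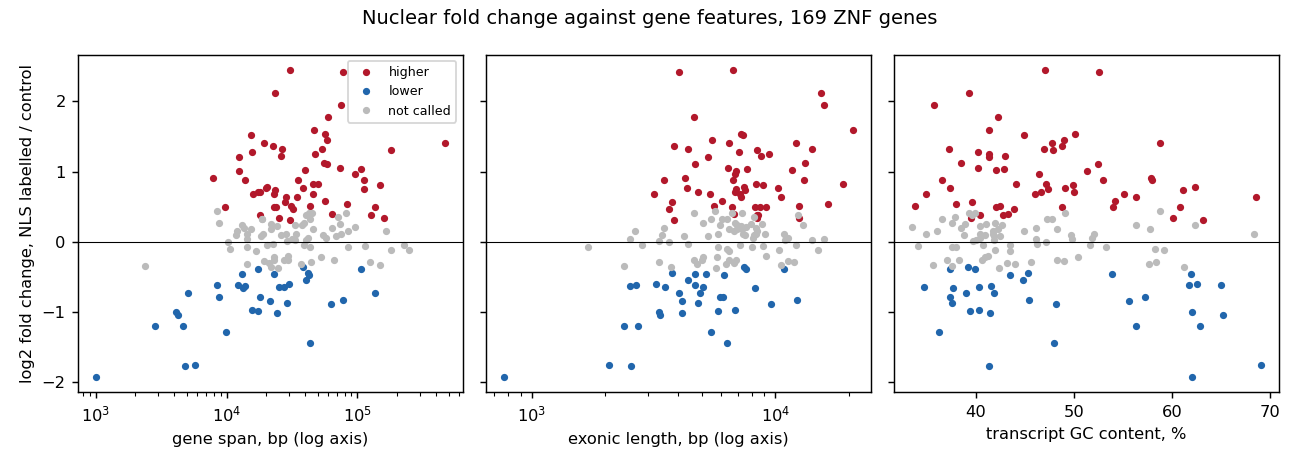
Nuclear log2 fold change of the 169 ZNF genes against gene span and exonic length (bp, log axes) and transcript GC content (%), with the call in colour. Genes that fell gather at short spans and short exonic lengths, and no trend with GC content is seen (Spearman 0.006).

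At OMM 0 of the 169 genes passed (edgeR), against 0.139% of 14438 genes higher and 0.0554% lower. At an unadjusted p under 0.05 there were 13, 10 higher and 3 lower, which is 7.69% against 10.6% of all genes, and DESeq2 called 9 higher and 4 lower. These DESeq2 calls are 5.33% and 2.37% of the ZNF genes, against 5.15% and 4.50% of all genes and 9.71% and 6.60% of the other protein-coding genes at this level. The median log2 fold change was 0.12 for the ZNF genes (quartiles -0.39 and 0.61) and 0.00 for all genes. Its sign depended on the setting, and it was -0.058 with the GC trend removed, -0.084 with the length trend removed and -0.0094 for the ZNF genes chosen on OMM counts. Without labelled OMM library 3 it was -0.047. Across the 169 genes the OMM fold change and transcript GC content had a Spearman correlation of -0.312, and of -0.333 across the other protein-coding genes at this level, a description. Both labelled libraries lay above both controls in 39 genes, which is 23.1% against 21.3% of all genes, and below both in 29, which is 17.2% against 22.5%, and the groups overlapped in 101. Among protein-coding genes with as many nuclear counts 0.262% were higher and 0.0785% lower, and the groups lay apart in 26.2% upward and 23.1% downward. No OMM count entered the choice of the genes. Without 1 of the OMM libraries, 0.592% to 2.96% of the genes were higher, the most without control 3, and 1.78% were lower without labelled library 3.

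The OMM libraries of a group differed from each other more than those at NLS. The median fold between the 2 libraries of a group, over the 169 genes, was 1.51 for labelled OMM libraries and 1.47 for OMM controls, against 1.09 for labelled NLS libraries and 1.13 for NLS controls. The biological coefficient of variation was 0.958 at OMM and 0.166 at NLS. In 9 genes a library held 0 counts while its replicate or the other group held more, such as ZNF268, with 29.1 and 32.9 CPM in the labelled OMM libraries and 15.8 and 0 CPM in the controls. On simulated data with these library sizes and spreads, 2.02% of 2-fold and 33.0% of 4-fold changes were recovered at OMM, against 90.0% and 98.0% at NLS, so most 2-fold differences were not detectable at OMM.

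The gene nearest to the threshold was ZNF638, with 441 and 438 CPM in the labelled OMM libraries, against 153 and 97.1 CPM in the OMM controls, a log2 fold change of 1.82 ± 0.26 (adjusted p = 0.0534, edgeR). Its labelled libraries lay well above both controls, and the authors' deposited table gives 1.83 with a p of 1.01e-12. ZNF800 had 33.1 and 31.8 CPM in the labelled OMM libraries and 7.94 and 7.34 CPM in the controls (2.09 ± 0.61, adjusted p = 0.249), again without overlap. The highest fitted values among genes with counts in every OMM library were those of ZNF782 (2.37), ZNF197 (2.22) and ZNF724 (2.11), of which ZNF724 had at most 3.70 CPM in any library. The lowest were those of ZNF526 (-1.98), ZNF224 (-1.82), a repressor of aldolase A, and ZNF444 (-1.49). ZNF526 had 4.87 and 1.10 CPM in the labelled OMM libraries, against 12.5 and 11.2 CPM in the controls, and ZNF224 had 3.17 and 6.34 CPM against 8.15 and 25.4 CPM. None of these 6 genes passed, and their standard errors ran from 0.68 to 3.52 on the log2 scale.

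The difference between compartments was tested as the interaction in a fit of all 8 libraries over 23178 genes, in which the NLS change minus the OMM change passed for 14 of the 169 genes. For 6 genes, 3.55%, the nuclear change was above the OMM change, against 1.41% of all genes and 2.01% of protein-coding genes with as many nuclear counts. For 8 genes, 4.73%, it was below, against 6.73% and 19.2%. The median difference was 0.04 over the 169 genes and 0.11 over all genes. Of the 123 genes that reached the count limit by either arm, 4 were above and 8 below, with a median of -0.11. Of the 41 that reached it through the labelled libraries only, 2 were above and 0 below, with a median of 0.57, so the share above also moved with how the genes were chosen. Compartment coincides with kit and RNA selection in these libraries, so a difference cannot be assigned to either. Without either NLS control 0 genes passed, and without either labelled NLS library 0 were above and 0.592% below, namely ZNF664. Without OMM control 3 the shares were 7.10% above and 13.6% below, and without labelled OMM library 2 or 3 the share above was 6.51% or 14.2%. DESeq2 gave 17.2% above, and library size alone 1.78% below.

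ZNF767P had the largest difference, 3.68 ± 0.58 (SE). At OMM it had 6.196 and 4.30 CPM in the labelled libraries and 8.30 and 17.6 CPM in the controls, opposite in direction to its nuclear levels. ZNF875 differed by 2.32 ± 0.52, with 46.5 and 47.2 CPM in labelled NLS libraries against 15.8 and 16.6 CPM in NLS controls, and 5.36 and 7.97 CPM in the labelled OMM libraries against 12.2 and 11.2 CPM in the OMM controls. Both genes passed the count rule only through the labelled NLS libraries, which also enter this difference, so their values are a description. ZNF276 (1.62), ZNF195 (1.52) and ZNF746 (1.42) likewise had both labelled libraries above both controls at NLS and below them at OMM. ZNF589 (1.63) had 148 and 152 CPM against 60.0 and 50.4 CPM in the NLS controls, while its OMM groups overlapped.

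In the other direction stood ZNF770 (-2.24 ± 0.35, adjusted p = 0.0154, edgeR), with 48.0 and 59.6 CPM in the labelled NLS libraries against 130 and 133 CPM in the NLS controls, and 80.4 and 130 CPM in the labelled OMM libraries against 55.2 and 54.5 CPM in the OMM controls. ZNF800 differed by -2.18 ± 0.33, and at NLS it had 47.3 and 49.5 CPM in the labelled libraries and 55.1 and 46.5 CPM in the controls, which overlap. ZNF664 differed by -1.79 ± 0.19, with the lowest adjusted p of the 14 (0.00582), and had 477 and 440 CPM in the labelled OMM libraries against 351 and 383 CPM in the OMM controls. ZNF614 (-1.82), ZNF703 (-1.62), ZNF24 (-1.28) and ZNF384 (-1.23) were below both controls at NLS and above them at OMM. ZNF638 (-1.50) was higher than its controls in both compartments, by 0.34 at NLS and 1.82 at OMM. The 8 genes with a lower nuclear change thus had all labelled OMM libraries above the OMM controls, and ZNF664, ZNF703 and ZNF24 are also among the most abundant per length.

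**Figure D5:**
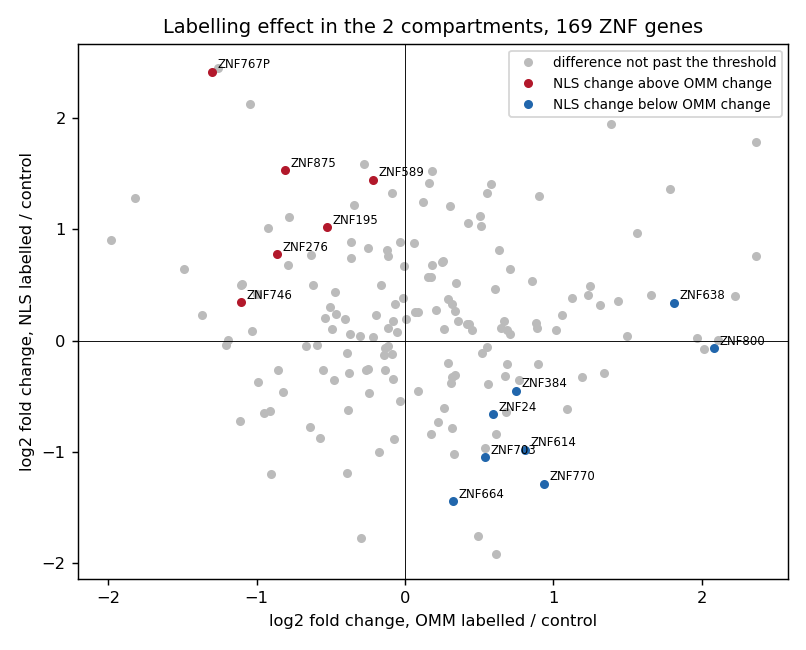
Nuclear log2 fold change (vertical) against OMM log2 fold change (horizontal), labelled over control, for the 169 ZNF genes. Named red points are the 6 genes whose nuclear change was above the OMM change and blue points the 8 below it, which lie in the upper left and the right of the plot.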

How the data were processed

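RNA tagged by APEX2 was measured in 8 libraries of HEK293T cells, 2 labelled and 2 unlabelled at each compartment. Raw gene-level counts deposited by the authors came from STAR alignments to GRCh38.p13 counted by HTSeq, per the submitters' processing notes, which also name Trimmomatic, SAMtools, bedtools and DESeq2 without versions. A separate table by the authors holds their log2 fold changes, labelled over control. That deposited table also holds a p-value for each gene, and its values carry no error here. How captured RNA was released is unsettled: Proteinase K (NLS) and TRIzol (OMM) in the series text, an RNeasy kit in every sample's labels. Column names showed compartment and arm, with numbers that differ from those in the titles, and 4 count columns and 2 comparison columns matched no sample and were not used.

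All genes entered edgeR 4.0.16 under R 4.3.3 (robust quasi-likelihood F test, two-sided, TMM, filterByExpr with minimum count 10, prior count 0.125, Benjamini-Hochberg over all tested genes, threshold 0.05), with NLS and OMM fitted apart and a joint fit for the difference between them. SEs were the absolute log2 fold change over the square root of F. No libraries agreed within sampling noise (chi-square per degree of freedom 4.98 to 229). The steps were tested on simulated data with 100 changed genes per fold size at NLS. Alternatives were DESeq2 1.42.0, library size alone, no filter, and GC or length trends removed (lowess, span 0.3). Others were a replicate block, each library left out and other choices of genes. In the trends, GC content and length (log2) were those of a chosen transcript per gene, not of the gene span. Positions, gene types, lengths and sequences came from GENCODE 29 (GRCh38), in which all 169 genes and 58337 of 60664 were found. Fingers could not be counted in proteins here, so the linker motif in transcripts was counted in their place.

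The genes and all lists were chosen with earlier results of these data known. Named were the 6 highest and 6 lowest at NLS that passed with groups apart, the 5 highest per length, the members of 3 role lists, all that passed in the joint fit (at most 6 had been set, and the 8 lower ones are all given), the 3 highest and lowest at OMM with counts in every library, the 3 on each side of the count limit, the gene with the most linkers and the 3 nearest 0. Genes named for shared sequence, single OMM examples and neighbourhoods were chosen after their values were seen.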

Additional observations from a re-analysis of the deposited data

Results flagged for a closer look

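For 14 genes the labelling effect differed between the compartments in a direct test of the difference (NLS change minus OMM change on the log2 scale, edgeR, adjusted p under 0.05, with 2 libraries in each of the 4 groups). The difference was positive for ZNF767P (3.68), ZNF875 (2.32), ZNF589 (1.63), ZNF276 (1.62), ZNF195 (1.52) and ZNF746 (1.42). It was negative for ZNF770 (-2.24), ZNF800 (-2.18), ZNF614 (-1.82), ZNF664 (-1.79), ZNF703 (-1.62), ZNF638 (-1.50), ZNF24 (-1.28) and ZNF384 (-1.23). Kit and RNA selection differ between the compartments in the same way as the enzyme's place, so these cannot be told apart. The joint fit gave each gene a shared spread although OMM libraries varied more. For all but ZNF664, ZNF638 and ZNF24 the SE of the difference was below that of the OMM change in the separate fit. Errors of the joint fit are therefore likely too small and its calls too many. ZNF767P and ZNF875 entered the 169 genes only through the labelled NLS libraries that this difference also uses, so their values are a description.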

How the results depend on the processing

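The nuclear median of 0.16 stayed positive under every setting run, and that of all genes was positive too wherever given here (0.14 as reported). The share higher (36.1%) stayed above the share lower (20.7%) except among genes chosen on NLS control counts, with 27.2% and 27.8%. The median was 0.21 with DESeq2, below the 0.25 of all 41020 genes in that fit. With the length trend removed 57.4% were higher and 13.6% lower (median 0.47), against 32.1% and 23.3% of all genes (0.31). Scaling by library size alone gave 68.6% and 8.28% (median 0.68), against 43.7% and 16.1% of all genes (0.66). The ZNF median was 0.24 at a limit of 1000 counts and 0.094 at 3000 counts. It was 0.094 for genes chosen on OMM counts, 0.058 on NLS control counts and 0.086 without exonic overlap. Chosen on labelled NLS counts it was 0.36, with 13.02% lower. Without each NLS library, 28.4% to 40.2% were higher, 15.4% to 25.4% lower and the median was 0.12 to 0.22. With library size alone ZNF217 (0.048), ZNF384 (0.065), ZNF518B (0.13) and ZNF644 (0.14) turned positive. The cause was not tested.

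At OMM the share higher was 5.33% with DESeq2, 0.592% with the GC trend removed or with library size alone, and 1.78% with no filter. The share lower was 2.37% with DESeq2, and the median of 0.12 turned to -0.084 with the length trend removed and to -0.058 with the GC trend removed. Without each OMM library 0.592% to 2.96% were higher, 0 to 1.78% lower and the median was -0.05 to 0.24. In the test of the difference, 17.2% were above with DESeq2 (median 0.46) and 9.47% with the length trend removed (1.18% below, median 0.61). Library size alone gave 1.78% below and a median of 0.49, and a limit of 3000 counts 7.58% above and 9.09% below. The median was -0.15 for genes chosen on NLS control counts and 0.25 on labelled counts. Without each library 0 to 14.2% were above, 0 to 13.6% below and the median was -0.16 to 0.27.

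With the NLS column numbers as a replicate block 35.5% were higher and 20.7% lower, with a median of 0.17, and with the GC trend removed as well 39.6% and 21.9%, with 0.17. The numbers do not pair the libraries: deviations of the libraries numbered 1 correlated at -0.022, and the labels give no shared culture. The block lost the call of ZNF518B among named genes. No paired analysis was possible at OMM because the groups share only 1 number. Reads carry no molecular identifiers, 2 libraries per group set the error, and the spread at OMM hides most 2-fold changes.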
